A study of Mus musculus with 10 samples.

Results

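Ch25h, Hsd3b7, Cyp27a1 and Gpr183 encode 3 enzymes of oxysterol metabolism and an oxysterol receptor, and they were described across macrophages of 2 origins with and without lipopolysaccharide (LPS). They are 4 of the 13809 genes in the expression table. The enzymes were taken for their roles. Gpr183 was chosen by its measured LPS differences, which had opposite signs in the 2 origins, so its levels are given as a description and no test is reported for it in any comparison. All cells derived from marrow of 12 weeks old C57BL/6 mice. Resident macrophages, labelled CD163+, were ferromagnetic cells held back by a magnetic column without antibody labelling, and they were sequenced untreated (3 libraries) or after LPS (3 libraries). Bone marrow derived macrophages (BMDM), labelled CD163-, were cultured from the cells that passed through the column, in medium with 20% L929 supernatant as the source of growth factor, and were also left untreated (2 libraries) or given LPS (2 libraries). The culture lasted 6 days according to the growth protocol but 7 according to the sample titles. LPS, the outer membrane lipid of Gram-negative bacteria and a ligand of a Toll-like receptor, was given at 1 µg/ml for 4 h. Resident cells came straight from marrow and BMDM from culture, so origin, culture and selection on the column cannot be told apart. The labels do not say whether libraries of a group came from separate mice, and the spread that p-values rest on is that between libraries, which may be technical.

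Oxysterols are oxidized forms of cholesterol that act as signals as well as intermediates of bile acid synthesis. Ch25h encodes cholesterol hydroxylase, which adds a hydroxyl group to the side chain of cholesterol. Cyp7b1 then hydroxylates the ring, which gives the dihydroxycholesterol that binds Gpr183 (also called EBI2), a Gi-coupled receptor that guides B cells, dendritic cells and T cells within lymphoid tissue. Hsd3b7 oxidizes ring-hydroxylated oxysterols and so removes that ligand. Cyp27a1 is a mitochondrial hydroxylase of the cholesterol side chain that makes another oxysterol and starts the acidic route of bile acid synthesis. In macrophages, Ch25h is known as a gene induced through Toll-like receptors and type I interferon.

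The promoters of Ch25h and Gpr183 are shown because these are the members with the largest LPS differences in BMDM, of opposite sign. The sequences are from RefSeq (assembly GRCm38.p6, the build mm10) and cover the 250 bases before each gene's start, 5′ to 3′ on the gene's own strand, which is the minus strand for both. The start used here, also for motif distances, differs from that of the GENCODE gene positions given below. The windows of Ch25h and Gpr183 therefore reach slightly into those positions. Promoters of all 4 members were found there. Capitals mark matches, in order, to TATAAA, to the cAMP response element (CRE) letters TGACGTCA and to the NF-kB letters, which are GGG and CC with 5 bases of any kind between them.
Ch25h, chr19:34475149-34475398: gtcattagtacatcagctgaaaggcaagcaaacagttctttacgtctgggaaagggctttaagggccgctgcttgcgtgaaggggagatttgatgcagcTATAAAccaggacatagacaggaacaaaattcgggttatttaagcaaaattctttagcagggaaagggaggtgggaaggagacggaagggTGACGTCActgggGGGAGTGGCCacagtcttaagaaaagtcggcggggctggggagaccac
Gpr183, chr14:121965194-121965443: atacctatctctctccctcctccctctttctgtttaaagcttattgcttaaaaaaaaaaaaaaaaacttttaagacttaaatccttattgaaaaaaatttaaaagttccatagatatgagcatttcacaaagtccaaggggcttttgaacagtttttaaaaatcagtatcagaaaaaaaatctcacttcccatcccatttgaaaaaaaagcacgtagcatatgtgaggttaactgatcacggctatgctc

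In the Ch25h window the NF-kB letters lay 48 to 39 bases before the start, the CRE letters 61 to 54 bases before it and TATAAA 151 to 146 bases before it. The Gpr183 window held no match to any of the 8 motifs searched on both strands, and its GC content was 32.0%, against 50.4% for Ch25h and a median of 52.0% over 27025 promoters of the same length. The other motifs were AP-1 (TGANTCA), the interferon-stimulated response element (GAAA and GAAA with 2 bases of any kind between them), the GC box (GGGCGG), the PU.1 core (GAGGAA) and the CCAAT box. Of all promoters, 45.4% held the NF-kB letters, 1.62% the CRE letters, 13% TATAAA, 6.87% AP-1, 3.04% the interferon element, 32.9% the GC box, 23.1% the PU.1 core and 34.5% CCAAT. The Hsd3b7 window (GC 58.0%) held 2 overlapping matches to the NF-kB letters between 190 and 180 bases before the start and a GC box at 54 to 49 bases. The Cyp27a1 window (GC 54.0%) held the NF-kB letters at 31 to 22 bases, overlapping a GC box at 28 to 23 bases, and CCAAT at 71 to 67 and at 34 to 30 bases. A match describes letters in this window and no binding was measured.

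The libraries held 27.1 to 37.7 M gene reads. Among the macrophage markers, Csf1r (the receptor for macrophage growth factor) lay at 14637 to 20844 normalized reads in untreated resident libraries and 59633 to 61248 in untreated BMDM, and Cd163, named in the labels, at 5282 to 10740 and 41.9 to 53.9. Replicate 1 of both resident groups held Y-linked transcripts (Y-positive libraries) and the other resident libraries and all BMDM libraries did not. Resident values are therefore also given without those 2 libraries where they move a result. Neutrophil markers, 12 genes, took 0.685 to 1.44% of reads in untreated resident libraries, 1.03 to 1.23% in LPS-treated resident libraries and at most 0.00627% in BMDM. Their part in the differences between origins was not tested, and in bulk samples fewer cells of a type and less RNA per cell cannot be told apart.

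Ch25h (chr 19, 34473778 to 34475164 on the minus strand of GRCm38, 1 exon) showed the largest range of the 4 members. Its normalized reads were 221, 296 and 139 in untreated resident libraries and 507, 409 and 217 after LPS. In BMDM they were 30.1 and 34.7 untreated and 15133 and 14345 after LPS. The 2 resident groups overlapped, since the lowest LPS-treated library lay under 2 of the 3 untreated libraries, while every LPS-treated BMDM library stood far above all others.

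LPS raised Ch25h in BMDM 455-fold, from 32.4 ± 3.29 to 14739 ± 557 (SD, n = 2 each), a log2 difference of 8.79 ± 0.39 (SE; limma adjusted p = 2.03e-08). This was the 25th highest of 13755 differences tested, in a comparison where 28.3% of genes were called higher at an adjusted p under 0.05 and 39.7% had every LPS-treated library above every untreated one. In resident macrophages the means were 219 ± 78.7 and 378 ± 148 (SD, n = 3 each). The log2 difference there was 0.76 ± 0.32, with a 95% interval of 0.06 to 1.47 before adjustment, and it did not pass the test (limma adjusted p = 0.150), while 7.36% of genes were called higher. Without replicate 3 of the LPS-treated resident group it was 1.12 (limma adjusted p = 0.0366), and 0.55 with both Y-positive libraries removed (limma adjusted p = 0.326).

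The difference of the 2 responses, resident minus BMDM, was -8.02 ± 0.50 for Ch25h on the log2 scale (limma adjusted p = 6.92e-07), the 14th lowest of the 13755 genes, of which 22.8% were called lower. The order of the origins was turned by LPS. Untreated resident macrophages held 6.75-fold more Ch25h than untreated BMDM (log2 difference 2.66 ± 0.36, limma adjusted p = 7.44e-05, with 39.2% of genes called higher and 44.4% without overlap in that direction). After LPS they held 39.0-fold less (log2 difference -5.37 ± 0.36, limma adjusted p = 4.91e-07, with 34.5% called lower). An annotated antisense transcript, Gm26902, shares 159 exon bases with Ch25h. The strand setting of the read counting is not given in the sources used here, so reads of the 2 cannot be told apart.

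**Figure D1:**
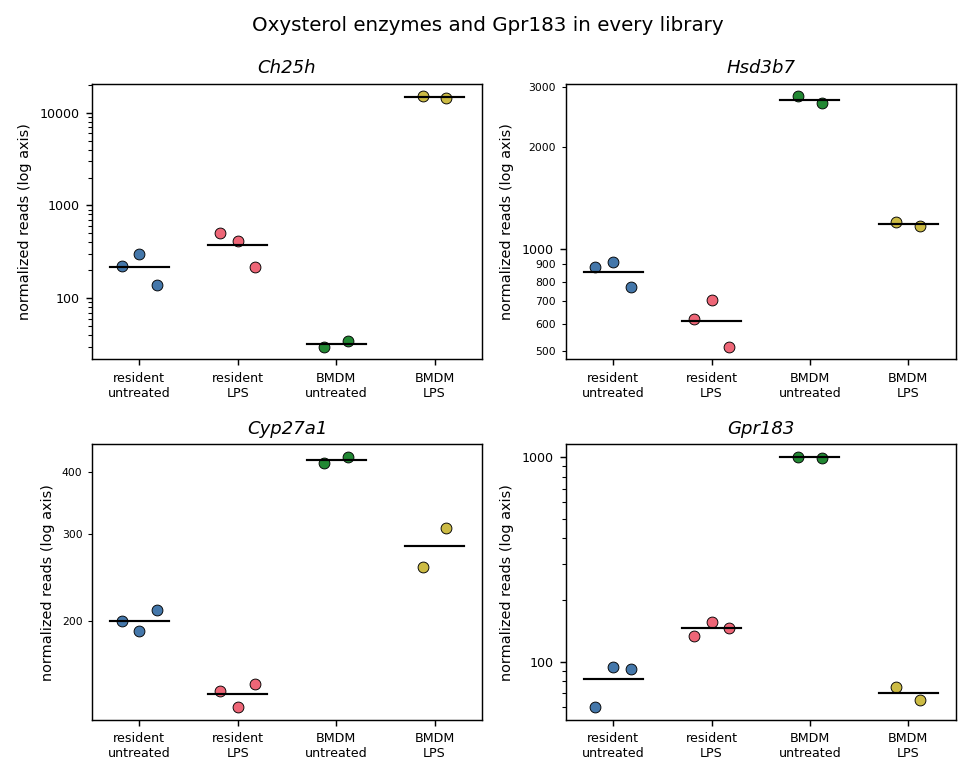
Normalized reads (log axis) of Ch25h, Hsd3b7, Cyp27a1 and Gpr183 in each of the 10 libraries, with 1 point per library and a line at the group mean. Ch25h stands near 14739 in LPS-treated BMDM and at most at 507 elsewhere, Hsd3b7 and Cyp27a1 are lower after LPS in both origins, and Gpr183 is near 998 in untreated BMDM and at most at 157 elsewhere.

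Hsd3b7, the enzyme that removes the Gpr183 ligand (chr 7, 127800604 to 127803802 on the plus strand, 3 to 7 exons by transcript), fell with LPS in both origins. Resident libraries held 881, 913 and 773 normalized reads untreated and 622, 706 and 515 after LPS, and BMDM held 2815 and 2688 untreated and 1198 and 1165 after LPS. No LPS-treated library reached an untreated library of its own origin, and every BMDM library lay above every resident library.

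The fall was 2.33-fold in BMDM (log2 difference -1.22 ± 0.14, limma adjusted p = 2.95e-05), where 29.5% of genes were called lower and 44.7% were lower without overlap. In resident macrophages the log2 difference was -0.49 ± 0.11 (limma adjusted p = 0.0203), where 5.57% of genes were called lower and 13.3% were lower without overlap. This resident call was lost without replicate 2 of the untreated group (-0.44, limma adjusted p = 0.0644) and in a fit of the resident libraries alone (-0.49, limma adjusted p = 0.106). Without the 2 Y-positive libraries it was -0.48 (limma adjusted p = 0.0422). The difference of the responses was 0.73 ± 0.18 (limma adjusted p = 0.00785, with 19% of genes called higher), that is, the fall was larger in BMDM. Resident levels were 3.21-fold lower than BMDM untreated (log2 difference -1.69 ± 0.13, limma adjusted p = 1.02e-06, with 32.6% called lower and 38.3% lower without overlap) and were also lower after LPS (-0.95 ± 0.13, limma adjusted p = 6.86e-05, with 40.2% lower without overlap). Hsd3b7 shares 1717 exon bases with Gm49388 on the same strand and 1729 with 9430064I24Rik on the opposite strand, and neither was analysed here, so its reads may include theirs.

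Cyp27a1 (chr 1, 74713574 to 74737892 on the plus strand, 9 exons) also fell with LPS in both origins, 1.40-fold in resident macrophages and 1.49-fold in BMDM. Resident libraries held 199.8, 191 and 211 normalized reads untreated and 145, 134 and 149 after LPS. BMDM held 417 and 429 untreated and 257 and 309 after LPS. The groups did not overlap, and the 2 LPS-treated BMDM libraries differed more from each other than the libraries of any resident group. Of all genes, 13.3% were lower with LPS without overlap in resident macrophages and 44.7% in BMDM. Between origins 38.3% were lower without overlap in untreated resident macrophages and 40.2% after LPS.

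For Cyp27a1 the log2 difference with LPS was -0.49 ± 0.12 in resident macrophages (limma adjusted p = 0.0223) and -0.58 ± 0.14 in BMDM (limma adjusted p = 0.00502). Of all genes, 5.57% and 29.5% were called lower there. The difference of the responses was 0.10 ± 0.18 (limma adjusted p = 0.708), with a 95% interval of -0.31 to 0.50 before adjustment, so a difference of that size in either direction could not be resolved. The BMDM call was lost without replicate 1 of the LPS-treated group (-0.45, limma adjusted p = 0.0532) and with quantile normalization (-0.33, limma adjusted p = 0.135). The resident call was lost without replicate 3 of the untreated group (-0.45, limma adjusted p = 0.0670), without replicate 2 of the LPS-treated group (-0.44, limma adjusted p = 0.0758) and in a fit of the resident libraries alone (-0.49, limma adjusted p = 0.0993), and was -0.50 without the 2 Y-positive libraries (limma adjusted p = 0.0305). Resident levels were lower than BMDM both untreated (-1.07 ± 0.13, limma adjusted p = 3.39e-05) and after LPS (-0.98 ± 0.13, limma adjusted p = 6.91e-05). In these comparisons 32.6% and 34.5% of all genes were called lower.

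Of the 3 enzymes, 2 fell and 1 did not pass the test with LPS in resident macrophages, where 12.9% of all genes were called in either direction. In BMDM 1 rose and 2 fell, where 57.8% were called. Between origins 1 was higher and 2 were lower in untreated resident macrophages, where 71.9% of genes were called, and all 3 were lower after LPS, where 71.3% were. For the difference of the responses, where 41.8% were called, 1 was called in each direction. Comparisons in which most genes are called say little about 3 genes by their count alone.

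Cyp7b1, which completes the Gpr183 ligand, was near the limit of detection in every library. Recovered reads were 5, 29 and 5 in untreated resident libraries, 7, 9 and 16 after LPS, 0 and 0 in untreated BMDM and 9 and 1 after LPS. Against a floor of 3 reads in each untreated BMDM library, the untreated resident mean was at least 4.48-fold higher, and replicate 2 carried most of that mean. Cyp7b1 passed the filter on low values only through resident libraries, so its fitted difference between untreated origins is no support. No LPS difference of Cyp7b1 could be resolved at these counts: its sign in resident macrophages changed with the normalization and with single libraries.

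Gpr183, the receptor (chr 14, 121952551 to 121965195 on the minus strand, 2 to 3 exons by transcript), had 59.8, 94.0 and 91.4 normalized reads in untreated resident libraries and 134, 157 and 145 after LPS. In BMDM it had 1002 and 993 untreated and 75.1 and 65.0 after LPS. No LPS-treated library overlapped with the untreated libraries of its origin, and the 2 origins moved in opposite directions, which is the pattern that chose the gene. The order of the group means was untreated BMDM (998 ± 5.90, SD, n = 2), LPS-treated resident (145 ± 11.4, n = 3), untreated resident (81.7 ± 19.1, n = 3) and LPS-treated BMDM (70.0 ± 7.10, n = 2). The last 2 groups overlapped, since 1 untreated resident library lay under both LPS-treated BMDM libraries.

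The LPS-treated mean of Gpr183 was 1.78-fold the untreated mean in resident macrophages (log2 difference 0.85) and 14.2-fold under it in BMDM (-3.82). In resident macrophages 13.8% of all genes had every LPS-treated library above every untreated one, and in BMDM 44.7% had every LPS-treated library below. Without the 2 libraries with Y-linked transcripts the resident difference was 0.70. Untreated resident macrophages held 12.2-fold less Gpr183 than untreated BMDM (-3.62), and LPS-treated ones 2.07-fold more than LPS-treated BMDM (1.04), without overlap, as did 42.3% of genes, with 36.7% of genes called higher. The latter was 0.52 with quantile normalization and 1.36 with equal library totals. The difference of the responses was 4.66, and the SD of Gpr183 within groups, pooled, was 0.23, all on the log2 scale.

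Gpr183 lies within the span of Ubac2, a gene of the ubiquitin pathway on the opposite strand (121878620 to 122021034), with no shared exon, and Gpr18, a receptor for lipid ligands, lies in the same gene (121911253 to 121915781, minus strand). Ubac2 had 616, 598 and 562 normalized reads in untreated resident libraries, 530, 620 and 556 after LPS, 847 and 899 in untreated BMDM and 937 and 895 after LPS. Its LPS difference did not pass the test in either origin (-0.06, limma adjusted p = 0.721, in resident macrophages and 0.07, limma adjusted p = 0.601, in BMDM). With equal library totals, where the median of all genes in BMDM moves by -0.59, the BMDM difference of Ubac2 was -0.54. With the strand setting not given, reads of unspliced Ubac2 cannot be told apart from those of Gpr183.

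Gpr18 showed another pattern from that of its neighbour. It had 75.8, 78.8 and 99.1 normalized reads in untreated resident libraries, 169, 284 and 166 after LPS, 18.2 and 9.14 in untreated BMDM and 212 and 224 after LPS. It rose in both origins, by 1.24 (limma adjusted p = 0.0181) in resident macrophages and by 3.97 (limma adjusted p = 3.68e-06) in BMDM, on the log2 scale. The rise was larger in BMDM (difference of the responses -2.73, limma adjusted p = 0.000685).

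**Figure D2:**
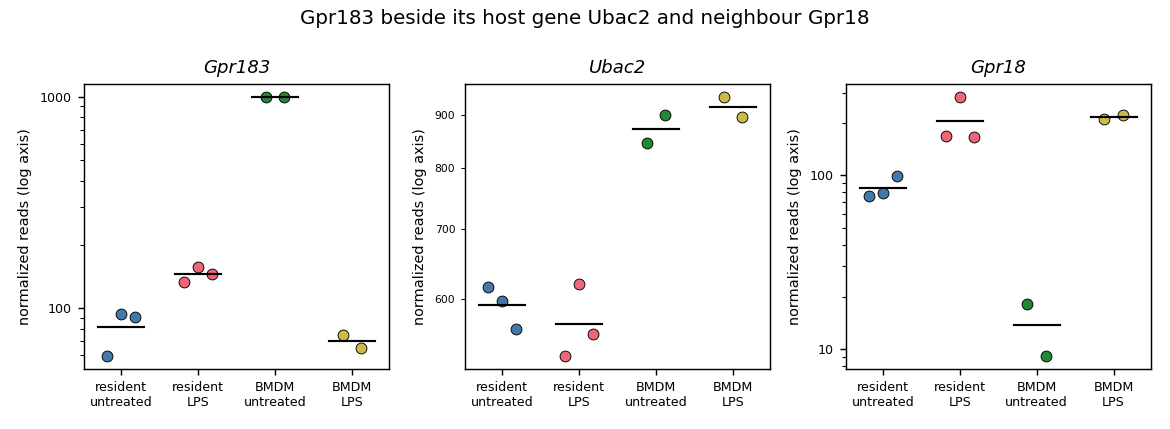
Normalized reads (log axis) of Gpr183, its neighbour Gpr18 and the host gene Ubac2 in the 10 libraries, with 1 point per library and a line at the group mean. Ubac2 stays between 530 and 937 in every library, while in BMDM the points of Gpr18 are higher and those of Gpr183 lower after LPS than untreated.

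B cells and dendritic cells are known to carry Gpr183, and their markers were read beside it. The 12 B lineage markers took 0.0191 to 0.0372% of reads in untreated resident libraries and 0.0203 to 0.0285% after LPS, with Fcer2a called higher with LPS and Blnk and Cd22 lower. In untreated BMDM, where Gpr183 was highest, the list took 0.0134 to 0.0138% of reads, and Blnk, at 2841 to 2906 normalized reads, made up most of it. There Cd22 lay at 394 to 424, Pax5, a transcription factor that defines B lineage cells, at 1 to 2.74 and Igll1 at the floor of the table in both libraries. The 10 dendritic markers took 0.0369 to 0.0482% in untreated and 0.0394 to 0.0448% in LPS-treated resident libraries, with Ccr7 called higher (0.85, limma adjusted p = 0.00917). In BMDM they took 0.014 to 0.015% untreated and 0.0432 to 0.046% after LPS. Nearly all of that was Bst2, also an interferon-induced gene, at 3363 to 3449 normalized reads untreated and 15838 to 17087 after LPS. With LPS 5 of the 10 markers were called higher in BMDM and 1 lower, where 28.3% and 29.5% of all genes were. Xcr1 lay at 17.4 to 22.8 normalized reads untreated and 356 to 368 after LPS, and Flt3, another marker of the list, at 28.3 to 35.6 and 14.4 to 20.3. The part of these cells in the Gpr183 differences was not tested in either origin.

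Compared per length of merged exons, the members changed order between groups. In untreated resident macrophages Hsd3b7 was highest at 309 ± 26.4 normalized reads per kb (SD, n = 3), followed by Ch25h at 158 ± 56.7, Cyp27a1 at 92.2 ± 4.51 and Gpr183 at 28.3 ± 6.61. After LPS Ch25h (272 ± 106) and Hsd3b7 (222 ± 34.6) did not differ beyond their spread, and Cyp27a1 (65.7 ± 3.57) and Gpr183 (50.3 ± 3.94) followed. In untreated BMDM the order was Hsd3b7 (994 ± 32.4, n = 2), Gpr183 (346 ± 2.04), Cyp27a1 (194 ± 3.93) and Ch25h (23.4 ± 2.37). In LPS-treated BMDM Ch25h (10626 ± 402) stood above Hsd3b7 (427 ± 8.43), Cyp27a1 (130 ± 16.8) and Gpr183 (24.3 ± 2.46).

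The ratio of Ch25h to Hsd3b7 sets the first enzyme of ligand synthesis against the enzyme that removes the ligand, as transcript levels per kb. It was 0.501, 0.648 and 0.359 in untreated resident libraries and 1.63, 1.16 and 0.840 after LPS. In BMDM it was 0.0213 and 0.0258 untreated and 25.2 and 24.6 after LPS. Each LPS-treated library lay above every untreated library of its origin, and the 2 origins crossed: resident ratios were above BMDM untreated and below BMDM after LPS. No enzyme activity or ligand was measured.

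**Figure D3:**
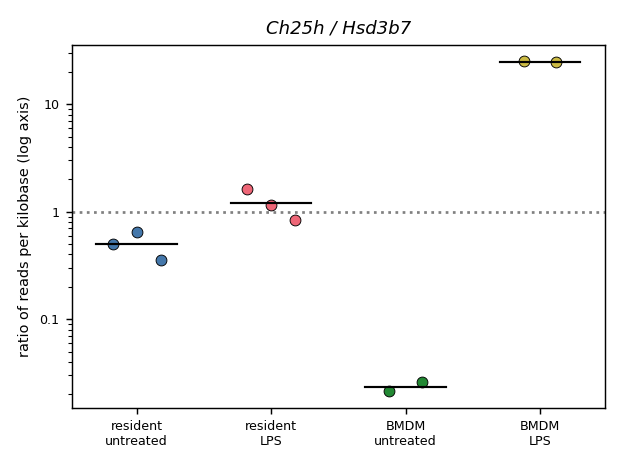
Ratio of Ch25h to Hsd3b7, both as normalized reads per kb of exon (log axis), in the 10 libraries, with 1 point per library. Resident libraries lie between 0.359 and 1.63, and BMDM lie at 0.0258 or less untreated and at 24.6 or more after LPS.

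The genes with the most similar profile over the 10 libraries were found by Pearson correlation of log2 values, as a description that is driven by the 4 group levels. For Ch25h they were Sap30 (r = 0.999), Hat1 (0.997), Psmb10, Cmtm6 and Cdkn1a (0.996 each). For Gpr183 they were Vegfa (0.986), Pkib (0.984), Ywhah (0.982), Neurl3 and Nat10 (0.974 each). Vegfa, the endothelial growth factor, had means of 1369 and 1715 normalized reads in untreated and LPS-treated resident macrophages and 6006 and 948 in BMDM, the same order of groups as Gpr183. For Hsd3b7 the closest were Spr (0.989), Ormdl1 and Ncbp2 (0.987 each), Snap47 and Nek4 (0.985 each), and for Cyp27a1 Serpinb8 and Slc16a7 (0.993 each), Wdr7 (0.992), Sumf2 and P2rx7 (0.991 each). Between members r was 0.947 for Hsd3b7 with Cyp27a1, 0.732 for Gpr183 with Hsd3b7 and -0.695 for Ch25h with Gpr183.

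The other enzymes of oxysterol and bile acid metabolism, numbered 22 in the list, of which 15 were tested. In resident macrophages 0 rose with LPS, 3 fell and 12 did not pass the test (median log2 difference -0.20, against 0.00 over all genes, of which 7.36% were called higher and 5.57% lower). Dhcr7, which makes the last step of cholesterol synthesis, fell by 0.70 on the log2 scale (limma adjusted p = 0.0414), and Soat1, which esterifies cholesterol for storage, fell by 0.63 (limma adjusted p = 0.00513), and the other was Hsd17b4. Without both Y-positive libraries the counts were again 0 and 3. In BMDM 2 rose and 7 fell (median -0.50, against -0.04), where 28.3% of all genes rose and 29.5% fell. Soat1 went from 7687 and 7582 to 2889 and 2957 normalized reads (log2 difference -1.38, limma adjusted p = 7.41e-06), and Dhcr7 had a log2 difference of -2.75 (limma adjusted p = 3.44e-06). Fdxr, the reductase that feeds electrons to mitochondrial P450 enzymes such as Cyp27a1, fell by 1.57 (limma adjusted p = 0.00261), and its partner Fdx1 rose by 0.68 (limma adjusted p = 0.00373), as did Cyp39a1, an oxysterol hydroxylase, by 1.52 (limma adjusted p = 0.0289). With equal library totals 0 of these enzymes were called higher and 11 lower in BMDM, and 0 and 5 in resident macrophages. Resident minus BMDM, the LPS response was called higher for 5 (Hsd11b1, Fdxr, Star, Dhcr7 and Soat1) and lower for Fdx1 (median 0.75, against 0.02), where 19% of all genes were called higher and 22.8% lower. With equal library totals these counts were 9 and 0. Hsd11b1 lay under 10 normalized reads in BMDM, near the floor of the table. It passed the filter on low values only through resident libraries, so its call for this difference is no support.

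Between untreated origins 6 of these enzymes were higher and 6 lower in resident macrophages (median -0.38, against 0.08 over all genes, of which 71.9% were called in either direction). The 6 that were higher include Hsd11b1 and Cyp7b1, which passed the filter on low values only through resident libraries, so these calls are no support. With quantile normalization 3 were higher and 7 lower. Hsd11b1, which activates glucocorticoids and also handles ring-oxidized oxysterols, had 611 ± 192 normalized reads in resident (n = 3) and 5.93 ± 0.656 in BMDM (n = 2), a log2 difference of 6.41. It passed the filter on low values only through resident libraries, so its fitted differences between origins, untreated or after LPS, are no support. Cyp11a1, the side-chain cleavage enzyme of steroid synthesis, was higher by 3.43 (limma adjusted p = 3.07e-06). Dhcr7 was lower (-2.05, limma adjusted p = 1.26e-05). After LPS 4 were higher and 6 lower (median 0.29, against 0.03, with 71.3% of all genes called), and with equal library totals 6 were higher and 4 lower. The 4 were Hsd11b1 (8.18, with the limit just given), Cyp11a1 (4.18), Star (1.77) and Fdxr (0.95). Hsd17b4, a peroxisomal enzyme of side-chain oxidation, was lower (-1.21, limma adjusted p = 3.46e-07).

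Among proteins that sense or carry oxysterols, 22 of 24 listed genes were tested, and 1 rose and 2 fell with LPS in resident macrophages (median -0.09). Osbpl3, an oxysterol-binding protein relative, rose by 1.02 (limma adjusted p = 0.00266), and Vdr, the vitamin D receptor, which also binds bile acids, fell by 0.88 (limma adjusted p = 0.0135), and Osbpl2 fell by 0.44 (limma adjusted p = 0.0267). In BMDM 6 rose and 12 fell (median -0.46). The sterol carriers Stard3 (1.94, limma adjusted p = 3.09e-07) and Stard5 (1.81, limma adjusted p = 7.98e-05) rose, and Vdr (-3.57, limma adjusted p = 3.20e-07) and Smo, a Hedgehog pathway protein that binds oxysterols (-1.74, limma adjusted p = 0.00535), fell. With equal library totals 2 were called higher and 16 lower in BMDM, and 1 higher and 5 lower in resident macrophages. Shares over all genes are those given for the enzymes. Resident minus BMDM, the LPS response was called higher for 9 and lower for Nr1h2, Npc2, Stard3 and Stard5 (median 0.39, against 0.02), where 19% of all genes were called higher and 22.8% lower. With equal library totals these counts were 14 and 2, and with quantile normalization 11 and 2.

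The liver X receptors, nuclear receptors activated by oxysterols, differed from each other. Nr1h3 (LXR alpha) had 6780, 5718 and 6298 normalized reads in untreated resident libraries and 1644 and 1631 in untreated BMDM, a log2 difference of 1.93 (limma adjusted p = 1.55e-07). It fell with LPS in BMDM to 1113 and 1183 (-0.51, limma adjusted p = 0.00467), and in resident macrophages, at 5315, 4324 and 5573 after LPS, the difference of -0.31 did not pass the test (limma adjusted p = 0.0720). Nr1h2 (LXR beta) was at 2226 to 3555 in all libraries, higher in resident macrophages untreated (0.53, limma adjusted p = 0.00038). Its LPS difference in BMDM was 0.34 (limma adjusted p = 0.0139), but -0.28 with equal library totals and -0.15 with quantile normalization. Untreated, 9 of the 22 sensors and carriers were higher and 8 lower in resident macrophages, where 39.2% and 32.6% of all genes were. The counts turned to 6 and 10 with equal library totals. Stard3 was higher (1.40, limma adjusted p = 1.59e-06), and Osbpl3 (-1.39, limma adjusted p = 3.58e-05) and Stard4 (-1.28, limma adjusted p = 0.0035) were lower. After LPS 9 were higher and 6 lower, where 36.7% and 34.5% of all genes were, turning to 13 and 5 with equal library totals. Smo was higher by 3.04 (limma adjusted p = 5.54e-05), and Stard5 (-1.18, limma adjusted p = 0.000635) and Npc2, a lysosomal cholesterol carrier (-1.09, limma adjusted p = 0.00168), were lower.

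**Figure D4:**
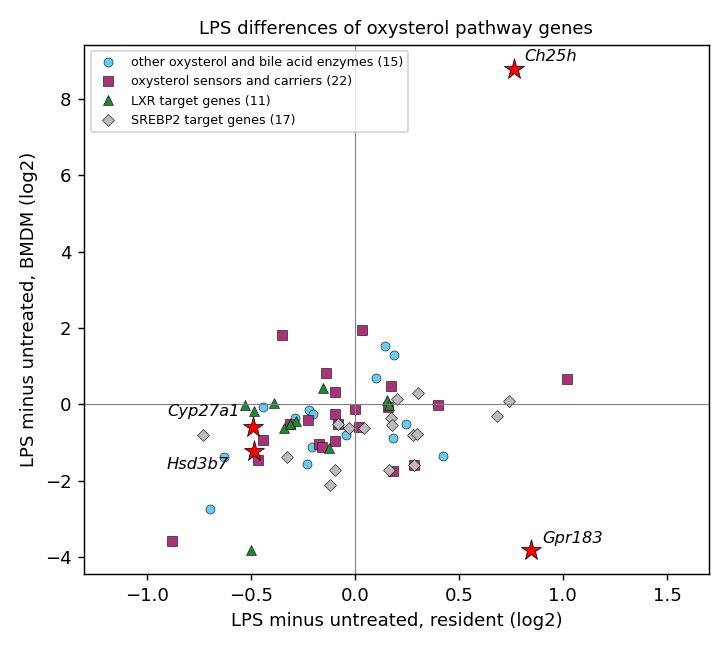
Log2 difference, LPS minus untreated, in resident macrophages (x axis) and BMDM (y axis) for the 4 members (stars) and the tested genes of 4 pathway lists, with 1 point per gene. Ch25h (0.76 and 8.79) lies above all other genes shown on the BMDM axis and Gpr183 (0.85 and -3.82) in the lower right, where no other gene shown lies below -2 on that axis, while Hsd3b7 and Cyp27a1 lie among the list genes.

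**Figure D5:**
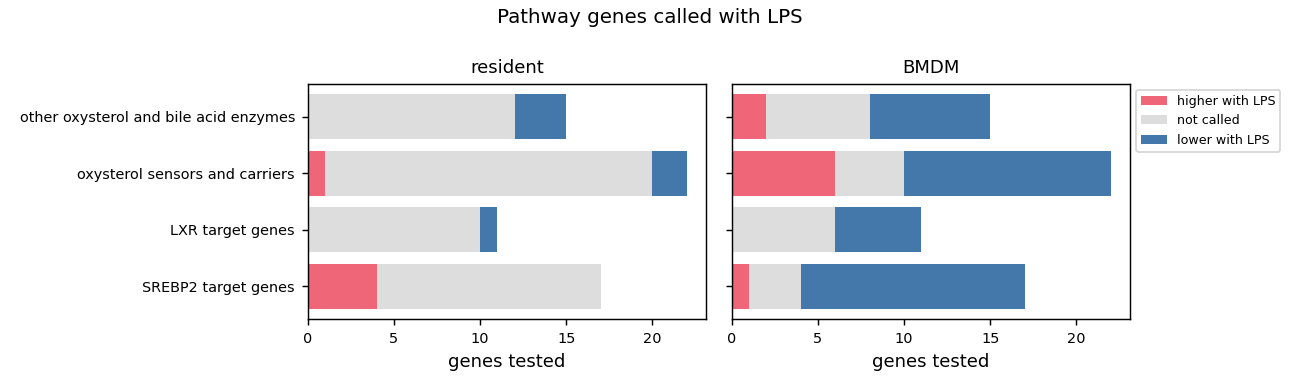
Number of tested genes of 4 pathway lists that were called higher, not called or called lower with LPS at an adjusted p under 0.05, in resident macrophages (left) and BMDM (right). In resident macrophages most genes of each list were not called, as were most of all genes, of which 12.9% were called. In BMDM the calls were mostly lower, with 7 of 15 enzymes and 12 of 22 sensors and carriers called lower. Of all genes there, 28.3% were called higher and 29.5% lower. With equal library totals 11 of these enzymes and 16 of the sensors and carriers were called lower in BMDM.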

How the data were processed

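RNA was sequenced from 10 macrophage libraries. The deposited signal values are read counts per gene, which the authors scaled with 1 factor for each library and gave a floor of 1; this was tested on the table, where values are whole multiples of 1 step per library (0.892 to 1.35) within 0.02 in 100% of cases. HISAT 0.1.7 and the build mm10 are named per the submitters' processing notes. Sources used here do not give the annotation, the counting program or its strand setting. Recovered reads are values divided by the step. No sample row was left unused.

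Groups came from the labels. Log2 of the value plus 1 was fitted with limma 3.58.1 (R 4.3.3; variance trend) in 1 model of 4 groups and 10 libraries (6 residual degrees of freedom), for 13755 genes that reached 10 in at least 2 libraries; 54 genes were left out. Fold changes of low genes are understated on this scale. The 2-sided p-values were adjusted per contrast (5 in all) after Benjamini and Hochberg, and a gene is called under 0.05.

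The members and gene lists were chosen with earlier results of these data known, and the motifs with the sequences seen. The text names the 4 members and, per list and contrast, up to 2 called rises and 2 called falls with a mean of at least 20 in the higher group, plus Cyp7b1, Nr1h2, Nr1h3, Abca1 and Soat1; Ubac2 was added as the gene around Gpr183 and Gpr18 as its neighbour. Other genes named to complete counts of 5 or fewer were chosen after their values were seen. A few genes that this rule or the marker lists would name are not reported here. The 5 genes most like each member leave out predicted names. Gene positions and exon lengths are from GENCODE M21. Alternatives were other pseudocounts, filters, normalizations, variance models, and leaving out libraries. The fit was tested on simulated data. Figures used Python 3.11.15 and matplotlib 3.10.9.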

Additional observations from a re-analysis of the deposited data

Results flagged for a closer look

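The following genes were picked out because the LPS response differed between resident macrophages and BMDM in the interaction term of the limma model, given as the log2 response in resident minus that in BMDM. The exception is Gpr183, at 4.66, whose difference was not tested because it was picked for it. Of all genes, 41.8% were called for this difference. Among the enzymes the values were -8.02 for Ch25h, 0.73 for Hsd3b7, 2.06 for Dhcr7, 1.77 for Hsd11b1, -0.57 for Fdx1 and 0.76 for Soat1. Hsd11b1 lay under 10 normalized reads in BMDM, near the floor of the table. It passed the filter on low values only through resident libraries, so its value is no support. Among sensors and carriers they were 2.69 for Vdr, 1.92 for Smo, -2.16 for Stard5, -1.91 for Stard3 and -0.43 for Nr1h2, whose sign turned with equal library totals (0.056). Among LXR and SREBP2 targets they were 3.32 for Scd2, 1.03 for Mylip, 2.0 for Mvd and 1.9 for Sqle. Among receptors and Gi partners they were 4.5 for S1pr1, 3.65 for Cxcr4, -6.93 for Fpr2, -3.97 for Fpr1, 2.2 for Arrb1, 1.48 for Arrb2 and -0.69 for Gnai3. Single libraries were not screened for outliers, since no group holds 4.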

How the results depend on the processing

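Every log2 difference of Ch25h between origins, in BMDM and between responses, and every one of Hsd3b7 outside the resident LPS comparison, kept its direction and its side of the threshold under all alternatives. For Gpr183 every direction was kept. The differences of Gpr183 that moved by more than the pooled SD were 4.44 (difference of responses) with a pseudocount of 10; -3.47 (LPS in BMDM), -3.97 (untreated origins) and 0.52 (LPS-treated origins) with quantile normalization; -4.42, 1.36 and 5.15 (LPS in BMDM, LPS-treated origins, difference of responses) with equal library totals; and -4.46, 1.37 and 5.19 with equal totals without Rn45s, which holds 4.70% of 1 BMDM library. For Cyp27a1 the difference of responses was -0.16 with quantile normalization, and 0.58 (limma adjusted p = 0.0411) and 0.62 (limma adjusted p = 0.0291) with equal totals, with and without Rn45s; its LPS difference in BMDM was -0.33 with quantile normalization. Fitting only the resident groups gave -0.49 for both Hsd3b7 (limma adjusted p = 0.106) and Cyp27a1 (limma adjusted p = 0.0993), and 529 in place of 1779 genes called; fewer libraries estimate the spread there. A term for Y-linked transcripts gave 3449 and leaving out both such libraries 2840 calls. Otherwise the cause was not tested.

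Leaving out each library in turn gave, for LPS in resident macrophages, 0.47 to 1.12 for Ch25h, -0.59 to -0.37 for Hsd3b7, -0.52 to -0.44 for Cyp27a1, 0.64 to 0.96 for Gpr183 and 970 to 2287 calls, with 970 without replicate 2 of the LPS-treated group and 1185 without replicate 3 of the untreated group. For Cyp27a1 the range was -0.71 to -0.45 for LPS in BMDM and -0.035 to 0.23 for the difference of responses, which was below 0 without replicate 1 of LPS-treated BMDM.

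Signs turned for some named genes, called and not called. With quantile normalization, equal totals and equal totals without Rn45s, in that order, the LPS difference in BMDM was -0.45, -0.30 and -0.34 for Srebf2, -0.15, -0.28 and -0.31 for Nr1h2, -0.80, -0.58 and -0.62 for Abca1 and -0.014, -0.54 and -0.58 for Ubac2. The difference of responses was 0.26, 0.070 and 0.11 for Abca1, and with equal totals, with and without Rn45s, 0.056 and 0.093 for Nr1h2 and 0.36 and 0.40 for Ubac2. For Cyp7b1 the LPS difference in resident macrophages was -0.064 with quantile normalization, -0.60 with array weights, -0.22 and -0.18 without untreated replicates 1 and 3 and -0.11 without LPS-treated replicate 3 (up to 0.97 without untreated replicate 2), and its difference between LPS-treated origins was -0.62 with quantile normalization. Ubac2 was at 0.019 with LPS in resident macrophages without the libraries with Y-linked transcripts.

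Equal totals moved the median of all genes by -0.12 (LPS in resident macrophages), -0.59 (LPS in BMDM), -0.16 and 0.32 (origins untreated and after LPS) and 0.47 (difference of responses). The share of calls that were higher went from 56.9% to 27.1%, from 49.0% to 21.7%, from 51.5% to 68.2% and from 45.5% to 75.2% for all but the untreated origins. With quantile normalization it went from 54.6% to 41.5% for the untreated origins and from 45.5% to 56.9% for the difference of responses. Of the values of other named genes under the alternatives, 2910 kept their direction and side of the threshold, 136 lost a call, 20 gained one and 26 changed sign.

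No paired analysis was possible because the labels share no replicate number between groups, and numbers within a group were given in accession order. A planned quasi-likelihood test on recovered reads was not run. Voom on recovered reads, chosen after seeing the data, called 1781 genes for LPS in resident macrophages. With 2 or 3 libraries a group, small differences such as those of Cyp27a1 between responses could not be resolved.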

Other observations

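Genes that SREBP2 activates when cell sterol is low, 17 of 18 listed tested, were lower in untreated resident macrophages than in untreated BMDM for 16 genes and higher for 0 (median log2 difference -1.47, against 0.08 over all genes, of which 32.6% were called lower). Sqle, an oxygenase of sterol synthesis, differed by -3.13 (limma adjusted p = 6.0e-07) and Cyp51, a demethylase of the same route, by -2.53 (limma adjusted p = 1.94e-08). With LPS 13 fell and 1 rose in BMDM (median -0.62), where 29.5% of all genes fell, among them Mvd (-2.12, limma adjusted p = 1.93e-06) and Sqle (-1.73, limma adjusted p = 0.000124). The riser was Srebf2 itself (0.31, limma adjusted p = 0.00724), whose sign turned with quantile normalization and equal library totals. In resident macrophages 4 rose and 0 fell (median 0.18), where 7.36% of all genes rose, among them Idi1 (0.68, limma adjusted p = 0.0405), Hmgcs1 and Srebf2, and with equal library totals 1 rose. Resident minus BMDM, the LPS response was called higher for 14 of the 17 and lower for 0 (median 0.71, against 0.02), where 19% of all genes were called higher. Leaving out both libraries with Y-linked transcripts gave 4 higher and 1 lower in resident macrophages.

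Targets of the liver X receptors, 11 of 12 listed tested, were higher for 6 and lower for 4 in untreated resident macrophages, where 39.2% of all genes were called higher and 32.6% lower. The lipid exporter Abcg1 was higher by 2.10 (limma adjusted p = 7.4e-07), and the phospholipid transfer protein Pltp (-4.02, limma adjusted p = 3.24e-09) and the desaturase Scd2 (-3.24, limma adjusted p = 3.36e-07) were lower. Abca1, the cholesterol exporter, was at 20687, 10091 and 10792 normalized reads in untreated resident libraries and 7533 and 7519 in untreated BMDM (0.80, limma adjusted p = 0.0211), with replicate 1 of the resident group apart from the others. With LPS 5 targets fell and 0 rose in BMDM, led by Scd2 (-3.82, limma adjusted p = 2.04e-07) and Mylip (-1.16, limma adjusted p = 8.73e-07), with Abcg1, Srebf1 and Nr1h3, where 29.5% of all genes fell. With quantile normalization 8 fell, with equal library totals 9, and 10 with Rn45s also left out. In resident macrophages 1 fell, Pltp (-0.48, limma adjusted p = 0.0301), against 5 lower and 1 higher without the libraries with Y-linked transcripts, 4 lower with equal library totals and 5 lower with quantile normalization.

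Of receptors that guide leukocyte position, as Gpr183 does, 18 of 20 listed were tested, and with LPS 5 rose and 4 fell in resident macrophages and 8 rose and 7 fell in BMDM, where 12.9% and 57.8% of all genes were called. Equal library totals gave 5 rises and 5 falls in resident macrophages and 5 rises and 7 falls in BMDM. The formyl peptide receptor Fpr1 rose in both (1.82, limma adjusted p = 0.000125, and 5.80, limma adjusted p = 1.89e-09). Cxcr4, the receptor for the marrow chemokine Cxcl12, fell in BMDM (-4.702, limma adjusted p = 2.328e-09) and in resident macrophages (-1.057, limma adjusted p = 0.0009153). S1pr1, which guides exit to the blood, fell in BMDM (-4.366, limma adjusted p = 2.14e-05). Its difference in resident macrophages did not pass the test (0.1353, limma adjusted p = 0.8798). Ccr2 (-1.24, limma adjusted p = 0.00861) and Cx3cr1 (-1.15, limma adjusted p = 0.00334), both also monocyte markers, fell in resident macrophages. Both also fell in BMDM (Ccr2 -1.84, limma adjusted p = 0.0003067, and Cx3cr1 -4.053, limma adjusted p = 8.751e-08). The 6 monocyte markers together took 0.0681 to 0.145% of reads in untreated resident libraries and 0.120 to 0.159% after LPS. Most of it was Chil3 and Ly6c2, which were not called, while 3 were called lower (Ccr2, Cx3cr1 and F13a1) and 0 higher. The part of monocytes was not tested. Of 12 Gi partners tested, 1 rose and 2 fell in resident macrophages and 2 rose and 6 fell in BMDM, where the arrestins Arrb1 (-2.61, limma adjusted p = 1.8e-06) and Arrb2 (-1.86, limma adjusted p = 9.32e-07), which end receptor signalling, were lower. In BMDM 1 Gi partner rose and 10 fell with equal library totals, and 2 rose and 8 fell with quantile normalization.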
